A study of Mus musculus with 62 samples.

Results

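Messenger RNA of the prefrontal cortex was compared between 6 female C57BL/6 mice that had received 1 mg/kg of a mixture of polychlorinated biphenyls (PCBs) by mouth and 4 that had received vehicle (0 mg/kg). The 10 libraries were taken by tissue and dose from the labels, and they belong to a set of 21 prefrontal cortex libraries in a series of 62. The other prefrontal cortex libraries came from mice given 0.1 mg/kg or 6 mg/kg of the same mixture, called the MARBLES mixture by the submitters, and the same doses were also studied in striatum and liver. Strain, sex and oral route were shared by all groups. Age, duration of dosing and the vehicle are not given in the sources used here. Each library came from a tissue punch. Its title holds a number that recurs across the 3 tissues and is read here as the animal's number. The labels do not say how the animals were housed or dosed, and p-values measure only the spread between these samples. The comparison asks which cortical transcripts differ in level after the middle dose.

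PCBs are chlorinated aromatic compounds once used as insulating fluids, and they persist in fat and in the food chain. Congeners without chlorines next to the bond between the rings can bind the aryl hydrocarbon receptor and induce cytochromes P450, while congeners with chlorines there can sensitise ryanodine receptors, the calcium release channels of the endoplasmic reticulum. PCBs and their hydroxylated metabolites can also interfere with thyroid hormone transport and signalling. The prefrontal cortex holds layered projection neurons, inhibitory interneurons and glia, and a tissue punch mixes their RNA.

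In these cortices no gene passed an adjusted p of 0.05 between 1 mg/kg and vehicle. Of 14838 genes tested with edgeR (a count model, with Benjamini-Hochberg adjustment of its p-values), 0 passed, which is 0% of those tested, and the smallest adjusted p was 0.424. At an unadjusted p under 0.05 there were 635 genes higher (4.28%) and 595 lower (4.01%), and DESeq2, a second count model, called 0 as well, with 1287 genes at that unadjusted level. In edgeR fits that left out 1 library, the higher count ran from 328 (without animal 45) to 996 (without animal 50). The lower count ran from 302 (without vehicle animal 4) to 817 (without animal 50). Levels are therefore given below as values, as CPM (counts scaled to the size of each library), and a gene is said to have a higher or lower mean without a claim that it changed. Libraries did not overlap between the groups for 158 genes in the higher direction (1.06%) and 188 in the lower (1.27%).

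Totals ran from 8874514 to 11672016 counts in the vehicle libraries and from 8915300 to 11105860 at 1 mg/kg, and 16642 to 16967 genes had at least 1 count in each of the 10. The labelled tissue was checked against markers. All 17 markers of cortical layer neurons were detected in each library, and their summed level was 1127 to 1211 CPM in vehicle and 1060 to 1194 CPM at 1 mg/kg. Markers of striatal projection neurons were also present, at 2063 to 5164 CPM in vehicle and 1707 to 4362 CPM at 1 mg/kg, above the sums of the cortical layer markers. In the fit with striatum described below, vehicle means of Drd1, Drd2 and Adcy5 were 84.0, 84.0 and 697 CPM in cortex. In vehicle striatum they were 152.5, 186.6 and 1343 CPM, so the check does not show cortex punches free of striatal RNA. The 1 mg/kg library of animal 42 was the lowest of the 10 in the summed striatal markers. The vehicle library of animal 8 had 583 CPM of red cell transcripts against 42.03 to 106 CPM in the other vehicle libraries. The library of animal 45 (1 mg/kg) stood apart from its group on the first principal component, which held 23.3% of the variance, at 36.4 against -11.4 to 13.3 for the other 1 mg/kg libraries. It was not alone there, since animal 28 (0.1 mg/kg) lay at 34.9 and animal 55 (6 mg/kg) at 35.9. Values without animal 42, animal 45 or vehicle animal 8 are given beside some of the results below, not all.

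Promoters of 4 genes are shown first, since 3 belong to leading genes and 1 to the ribosomal protein group described below. Each runs from 250 bases before to 50 bases after the annotated start in RefSeq GRCm38.p6, 5′ to 3′ on the gene's strand, and capitals mark matches to the motifs searched. Casp6 is shown as the gene with the smallest p (chr3:129901165-129901464, plus strand), Atp5k as the leading respiratory chain gene (chr5:108434350-108434649, minus strand), Rpl38 as the ribosomal protein gene with the smallest p (chr11:114668330-114668629, plus strand), and Hdx as the gene with the smallest p among those lower (chrX:111697030-111697329, minus strand).
Casp6: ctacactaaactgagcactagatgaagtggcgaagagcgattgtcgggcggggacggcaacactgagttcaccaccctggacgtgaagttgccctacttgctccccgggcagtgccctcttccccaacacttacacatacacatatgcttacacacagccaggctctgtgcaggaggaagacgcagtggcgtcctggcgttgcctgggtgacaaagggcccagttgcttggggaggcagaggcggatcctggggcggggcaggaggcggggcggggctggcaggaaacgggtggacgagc
Atp5k: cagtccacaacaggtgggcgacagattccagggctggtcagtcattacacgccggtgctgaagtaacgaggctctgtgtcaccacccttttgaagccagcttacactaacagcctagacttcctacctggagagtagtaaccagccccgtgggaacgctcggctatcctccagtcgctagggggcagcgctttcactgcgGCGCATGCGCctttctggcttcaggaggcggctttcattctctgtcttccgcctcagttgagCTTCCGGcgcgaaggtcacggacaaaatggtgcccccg
Rpl38: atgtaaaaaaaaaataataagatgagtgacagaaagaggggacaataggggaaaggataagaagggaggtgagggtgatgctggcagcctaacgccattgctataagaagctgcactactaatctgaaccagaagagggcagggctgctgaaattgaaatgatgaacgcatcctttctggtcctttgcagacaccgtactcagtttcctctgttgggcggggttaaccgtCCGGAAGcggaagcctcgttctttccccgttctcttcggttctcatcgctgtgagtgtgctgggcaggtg
Hdx: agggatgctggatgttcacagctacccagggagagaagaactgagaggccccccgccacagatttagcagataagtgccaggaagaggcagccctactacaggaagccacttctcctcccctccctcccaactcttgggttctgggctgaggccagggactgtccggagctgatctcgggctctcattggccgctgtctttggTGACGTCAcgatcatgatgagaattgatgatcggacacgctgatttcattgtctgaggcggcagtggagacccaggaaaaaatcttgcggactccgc

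Both strands were searched for CCGGAAG (the ETS family core), CGCATGCGC (NRF1), AAGATGGCG (YY1), TGACGTCA (the cyclic AMP response element) and CACGTG (the E-box). The NRF1 letters overlap their own reverse complement, and a gene was counted once however many matches or promoter entries it had. Casp6 held none of the 5. Atp5k held the NRF1 letters on both strands, 49 and 50 bases before the start, and the ETS core on the opposite strand 13 bases after it. Rpl38 held the ETS core 20 bases before its start, and Hdx held the cyclic AMP response element 47 bases before its own. The ETS core was found for 23 of the 57 ribosomal protein genes with a promoter entry (40.4%) and 17 of 64 respiratory chain genes (26.6%). Among all tested genes, 11738 had an entry, and 17.9% of these held it. NRF1 letters were found for 12.5% of the respiratory chain genes with an entry and 3.69% of all, and YY1 letters for 10.9% and 3.16%. A match describes these letters only, and no binding was measured here.

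Casp6, which encodes an effector caspase (a protease that cleaves proteins during cell death and axon pruning), had the smallest p of all tested genes (chr3:129901415-129914112). Its level was 0.865, 0.841, 1.19 and 1.37 CPM in the vehicle libraries and 2.11 at the lowest, 3.17 at the median and 3.63 at the highest in the 1 mg/kg libraries. Every 1 mg/kg library lay above every vehicle library, on 24 to 33 counts against 8 to 12. The fitted log2 fold change was 1.48 ± 0.29 (SE), with an unadjusted p of 2.86e-05 and an adjusted p of 0.424 in edgeR. The DESeq2 adjusted p was 0.0527, and without animal 45 the edgeR log2 fold change was 1.45. Casp6 averaged 1.82 ± 0.347 CPM (SD, n = 5) after 0.1 mg/kg and 2.19 ± 0.797 CPM (SD, n = 6) after 6 mg/kg, between the means of vehicle (1.07 ± 0.257, n = 4) and 1 mg/kg (2.97 ± 0.568, n = 6).

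Atp5k, a small subunit of the mitochondrial ATP synthase, also had groups that did not overlap (chr5:108433246-108434399). It read 32.6, 24.7, 26.7 and 33.3 CPM in vehicle, and 35.0, 49.3 and 84.2 CPM as the lowest, median and highest at 1 mg/kg. The highest of these was animal 45 and the lowest, animal 50, lay just above the vehicle range. The log2 fold change was 0.83 ± 0.184 (SE, edgeR adjusted p = 0.588), 0.63 without animal 45 and 0.52 with the length slope described below as a covariate. Arhgap9, a GTPase-activating protein of blood cells, averaged 0.343 CPM in vehicle and 1.27 CPM at 1 mg/kg, on only 2 to 5 and 8 to 20 counts (log2 fold change 1.89 ± 0.41, adjusted p = 0.588). Its exons overlap those of Gli1 on the opposite strand, and whether counting used strand is not stated, so reads of the pair cannot be told apart.

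The other 9 leading genes with higher means were Hmg20b, Gas2, 2410022M11Rik, Pdlim2, 2810001G20Rik, Mrps18b, Cirbp, Hscb and Sarnp, with log2 fold changes of 0.43 to 0.96 and an adjusted p of 0.588 each in edgeR. Cirbp, a cold-inducible RNA-binding protein, read 41.9, 48.4, 37.8 and 39.7 CPM in vehicle and 50.8, 56.6 and 63.4 CPM as the lowest, median and highest at 1 mg/kg. Hmg20b, a chromatin protein of the LSD1-CoREST complex that represses neuronal genes, had a vehicle mean of 13.4 ± 1.49 CPM (SD, n = 4) against a dosed mean of 19.3 ± 1.6 CPM (SD, n = 6). Hscb, a mitochondrial co-chaperone of iron-sulphur cluster transfer, had means of 2.49 and 4.81 CPM, and Mrps18b, a protein of the mitochondrial ribosome, 16.2 and 21.8 CPM. Exons of Mrps18b overlap the antisense gene Gm16279. Gas2 shares exon sequence with Fancf on the opposite strand, and Sarnp with Dnajc14 on its own strand, so their counts are uncertain to that extent.

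**Figure D1:**
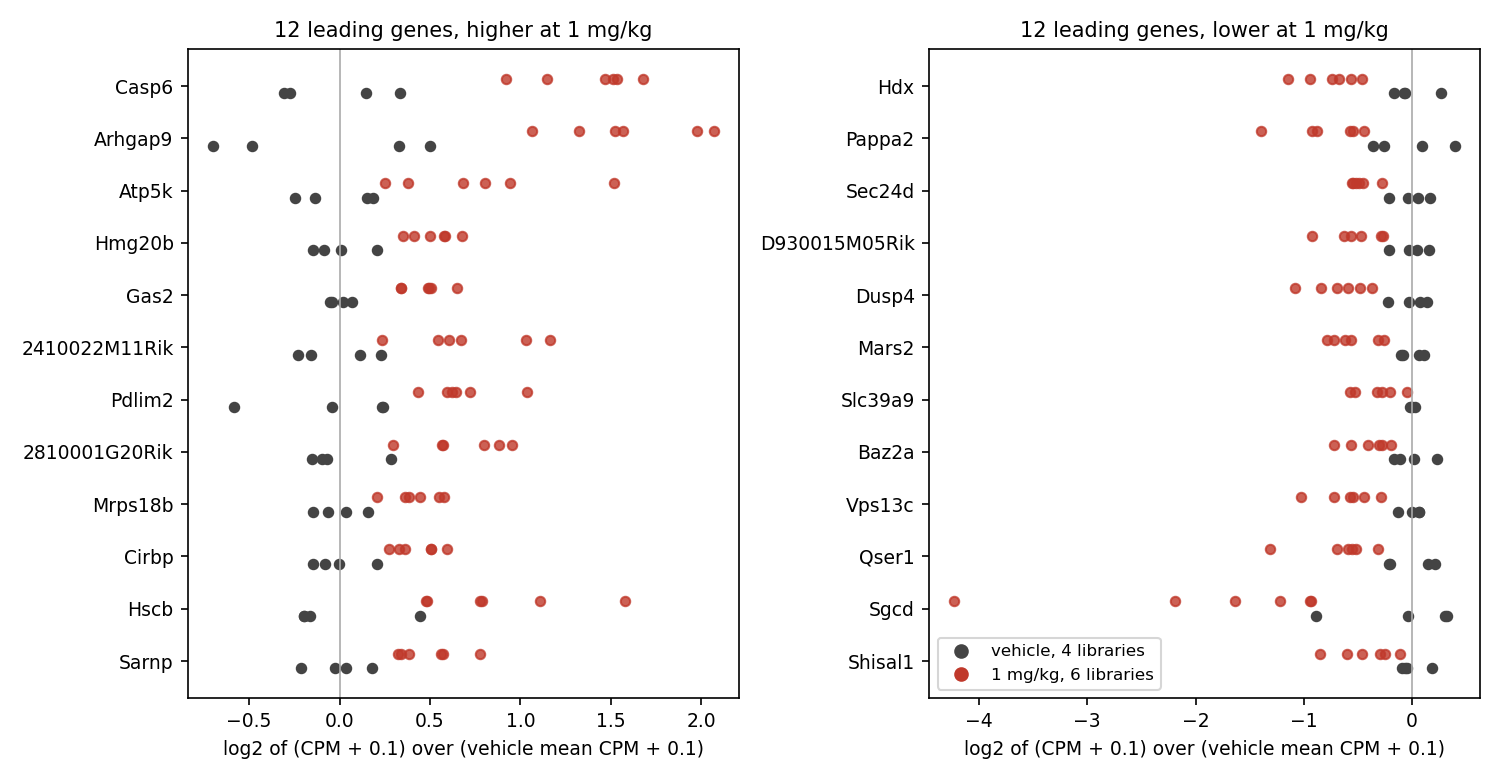
Level of the 12 leading genes in each direction, as the log2 of each library's CPM plus 0.1 over the vehicle mean plus 0.1; grey points are the 4 vehicle libraries and red points the 6 libraries at 1 mg/kg. Genes run from the smallest p at the top, the groups do not overlap in any of the 24, which is how they were chosen, and the Sgcd point at the far left is the library of animal 45 with 0 counts.

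Among genes with lower means, Hdx, a homeobox gene on the X chromosome, came first (chrX:111575204-111697079). It read 6.14, 7.78, 5.73 and 6.16 CPM in vehicle and 2.86, 3.92 and 4.65 CPM as the lowest, median and highest at 1 mg/kg. The log2 fold change was -0.74 ± 0.185 (SE, edgeR adjusted p = 0.588), and -0.76 without animal 45. Pappa2, a protease that frees insulin-like growth factors from their binding proteins, read 6.14, 10.4, 6.59 and 8.45 CPM in vehicle and 2.93, 4.77 and 5.80 CPM at 1 mg/kg (log2 fold change -0.76 ± 0.21, adjusted p = 0.588). In both genes all 6 dosed libraries lay below all 4 vehicle libraries.

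Dusp4, a nuclear phosphatase that switches off MAP kinases and is itself induced by them, was also among the 12 (chr8:34807610-34819894). Its level was 21.1, 24.2, 27.1 and 25.9 CPM in vehicle, and 11.5, 15.7 and 19.0 CPM as the lowest, median and highest at 1 mg/kg. The groups did not overlap, and the log2 fold change was -0.66 ± 0.186 (SE, edgeR adjusted p = 0.588). Without animal 45 it was -0.59. Dusp4 averaged 24.3 ± 5.37 CPM (SD, n = 5) at 0.1 mg/kg and 13.2 ± 4.11 CPM (SD, n = 6) at 6 mg/kg.

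The remaining leading genes with lower means were Sec24d, D930015M05Rik, Mars2, Slc39a9, Baz2a, Vps13c, Qser1, Sgcd and Shisal1. Vps13c, a lipid transfer protein at contacts between the endoplasmic reticulum and late endosomes, averaged 89.4 ± 5.59 CPM with vehicle (SD, n = 4) against 59.7 ± 9.98 CPM (SD, n = 6) after 1 mg/kg. Baz2a, which silences ribosomal RNA genes, averaged 77.3 and 58.5 CPM, and Sec24d, a coat protein of vesicles leaving the endoplasmic reticulum, 18.3 and 13.2 CPM. Sgcd, a sarcoglycan, had a log2 fold change of -1.71 ± 0.526, the farthest from 0 of these 12, on 8 to 26 counts in vehicle and 0 to 8 counts at 1 mg/kg. Exons of Slc39a9 overlap Erh on the opposite strand, those of Hdx a pseudogene on the opposite strand, and those of Pappa2 a long noncoding RNA on its own strand.

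Cytosolic ribosomal protein genes, which build the translating ribosome, had higher means at 1 mg/kg almost without exception. Of the 77 tested, 76 had a higher mean, 17 (against 4.28% of all tested genes) had an unadjusted p under 0.05 in that direction and none in the other, and 0 passed adjustment. The median log2 fold change was 0.26, against 0.005 over all tested genes. The direction did not hold in a fit with the length slope of each library as a covariate, described below, where 23 of 77 had a higher mean and the median was -0.03. Rps15a was the member with a lower mean (log2 fold change -0.03).

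Rpl38, a ribosomal protein with a known part in the translation of selected messages, read 64.9, 58.04, 48.5 and 62.0 CPM in vehicle, and 57.4, 92.9 and 127 CPM as the lowest, median and highest at 1 mg/kg. Rps29 read 85.2, 69.1, 57.2 and 72.7 CPM in vehicle and 62.3, 120.1 and 195 CPM at 1 mg/kg. Animal 45 was the highest in both, animals 41, 42 and 48 also lay above the vehicle range, and animals 46 and 50 lay within it for Rpl38. The log2 fold changes were 0.64 ± 0.192 for Rpl38 and 0.76 ± 0.23 for Rps29 (edgeR adjusted p = 0.588 for each), and 0.51 and 0.57 without animal 45. Rpl41, the smallest of these proteins, had a log2 fold change of 0.54 ± 0.184 with the same adjusted p.

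Nuclear genes for the respiratory chain and the ATP synthase, the complexes that make ATP in mitochondria, showed a like pattern. A higher mean was found for 75 of 78 tested members, 20 had an unadjusted p under 0.05 (against 4.28% of all tested genes) and 0 passed, and the median log2 fold change was 0.27. Cox7c, a small subunit of cytochrome c oxidase, read 106.9, 88.3, 89.3 and 106.0 CPM in vehicle, and 92.3, 132 and 183 CPM as the lowest, median and highest at 1 mg/kg (log2 fold change 0.46 ± 0.149, edgeR adjusted p = 0.588). Only animal 50 of the dosed mice lay within the vehicle range for Cox7c, and without animal 45 its log2 fold change was 0.35. Atp5mpl, another small protein of the ATP synthase, had the same log2 fold change of 0.46. The members with lower means were Ndufs1, Ndufb2 and Sdha, and with the length slope as a covariate 34 of 78 had a higher mean (median -0.009).

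In the mean log2 CPM over all ribosomal protein genes, vehicle libraries lay between 6.56 and 6.81. At 1 mg/kg, animals 45, 41 and 48 lay above that range (7.33, 7.09 and 7.07), and animals 42, 46 and 50 lay within it (6.80, 6.72 and 6.63). Without animal 45, 76 of 77 ribosomal protein genes still had a higher mean, the median log2 fold change was 0.17, and 7 members had an unadjusted p under 0.05. For the respiratory chain the same fit gave 75 of 78, a median of 0.17 and 5 members. With a GC slope as a covariate the medians were 0.16 for both lists, and with 1 surrogate variable 0.03 for ribosomal proteins and 0.05 for the respiratory chain. These counts at an unadjusted p depended on single libraries. For ribosomal proteins they were 10 without vehicle animal 4, 27 without vehicle animal 8 or animal 42, 33 without animal 46 and 44 without animal 50. For the respiratory chain they were 9 without vehicle animal 4, 31 without vehicle animal 8, 13 without animal 48, 32 without animal 46 and 40 without animal 50. Over all tested genes the higher count was 635 with all libraries, 418 without vehicle animal 4 and 743 without vehicle animal 8. It was 656 without animal 42, 719 without animal 46, 645 without animal 48 and 996 without animal 50.

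**Figure D2:**
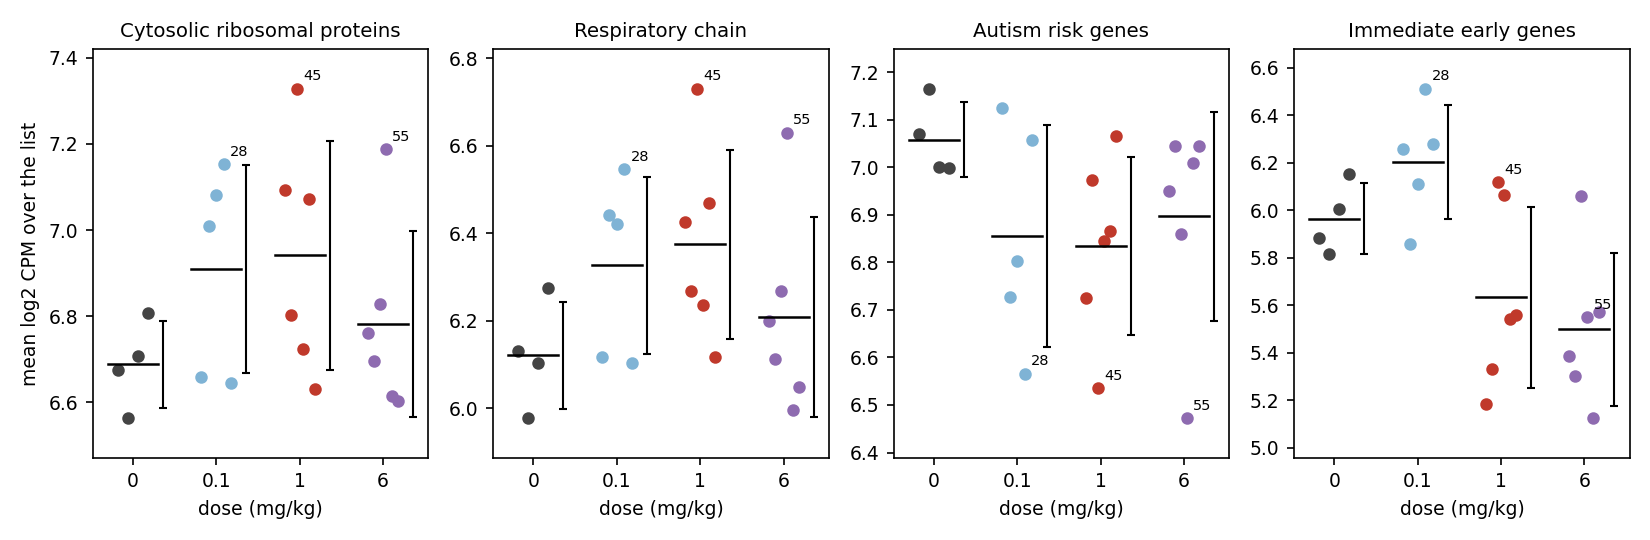
Mean log2 CPM over the tested members of 4 gene lists in each of the 21 prefrontal cortex libraries, by dose in mg/kg; points are libraries, horizontal lines group means and error bars 1 SD, and numbers mark animals 28, 45 and 55. Animal 45 has the highest ribosomal protein and respiratory chain level at 1 mg/kg (7.33 and 6.73) and the lowest level of autism risk genes (6.54), while its immediate early gene level (6.12) lies within the vehicle range.

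Autism risk genes, a list of chromatin regulators, ion channels and synaptic proteins with known disease variants in humans, had a lower mean at 1 mg/kg in 36 of 36 members. Of these, 9 had an unadjusted p under 0.05 (4.01% of all tested genes were lower at that level), 0 passed, and the median log2 fold change was -0.19. Tsc1, a brake on the growth kinase mTOR, read 89.6, 89.1, 83.9 and 88.6 CPM in vehicle and 57.2, 74.4 and 82.2 CPM as the lowest, median and highest at 1 mg/kg. Its groups did not overlap (log2 fold change -0.30 ± 0.116, edgeR adjusted p = 0.588). Scn2a, the sodium channel of axon initial segments, had a log2 fold change of -0.41 ± 0.173, and Kdm5b, a histone demethylase, -0.27 ± 0.108. Without animal 45, 32 of the 36 had a lower mean and 2 an unadjusted p under 0.05 (median -0.14). That count was also 2 without vehicle animal 4, 3 without animal 41, 4 without vehicle animal 3, 5 without vehicle animal 7 or animals 46 or 48, and 6 without vehicle animal 8, and it was 12 without animal 42 or animal 50. With the length slope as a covariate, 14 had a lower mean and the median was 0.01, and it was -0.10 with a GC slope and -0.04 with 1 surrogate variable.

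The differences followed transcript length across the whole transcriptome. Across 14141 tested genes with a known longest transcript (95.3% of those tested), the Spearman correlation of the log2 fold change with length was -0.559. Genes are not independent replicates, so this describes the libraries. In the shortest of 5 bins of equal size (66 to 2055 bases) the median log2 fold change was 0.17, with 311 genes higher and 12 lower at an unadjusted p under 0.05. In the longest bin (5400 to 123179 bases) it was -0.16, with 9 higher and 366 lower. Median transcript length was 1109 bases for the ribosomal protein list, 1003 for the respiratory chain, 8509 for autism risk genes and 3479 for all tested genes.

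Each library's own length slope, the Spearman correlation across genes between its deviation from the mean of all libraries and transcript length, moved with these gene groups. It was 0.149 to 0.456 in the vehicle libraries, so long transcripts were above average in each. At 1 mg/kg it was -0.574 in animal 45, -0.355 in animal 41, -0.179 in animal 48, -0.121 in animal 46, 0.104 in animal 42 and 0.315 in animal 50, so 5 of the 6 lay below the vehicle range. At the other doses it was -0.474 in animal 28 (0.1 mg/kg) and -0.582 in animal 55 (6 mg/kg). RNA integrity values are not given in the sources used here. The slope comes from the same expression values that are tested, and its mean was 0.294 in vehicle and -0.135 at 1 mg/kg. A fit with the slope would therefore also take out a dose difference that followed length. Which part of the difference between the groups belongs to the dose and which to the libraries was not tested. With the slope as a covariate, 512 genes had an unadjusted p under 0.05 in place of 1230, with 0 passing. There were 640 without animal 45 and 720 without the vehicle library of animal 4, again with 0 passing. Of the 24 leading genes, the log2 fold change came at least 1.5 times nearer to 0 with the slope in Atp5k, Hmg20b, 2810001G20Rik, Mrps18b, D930015M05Rik, Mars2, Baz2a, Vps13c, Qser1 and Shisal1. Vps13c went from -0.58 to -0.20, Qser1 from -0.64 to -0.24, Baz2a from -0.40 to -0.17, Shisal1 from -0.41 to -0.20 and Mars2 from -0.54 to -0.28. Casp6 went from 1.48 to 1.38 and Arhgap9 from 1.89 to 1.85.

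**Figure D3:**
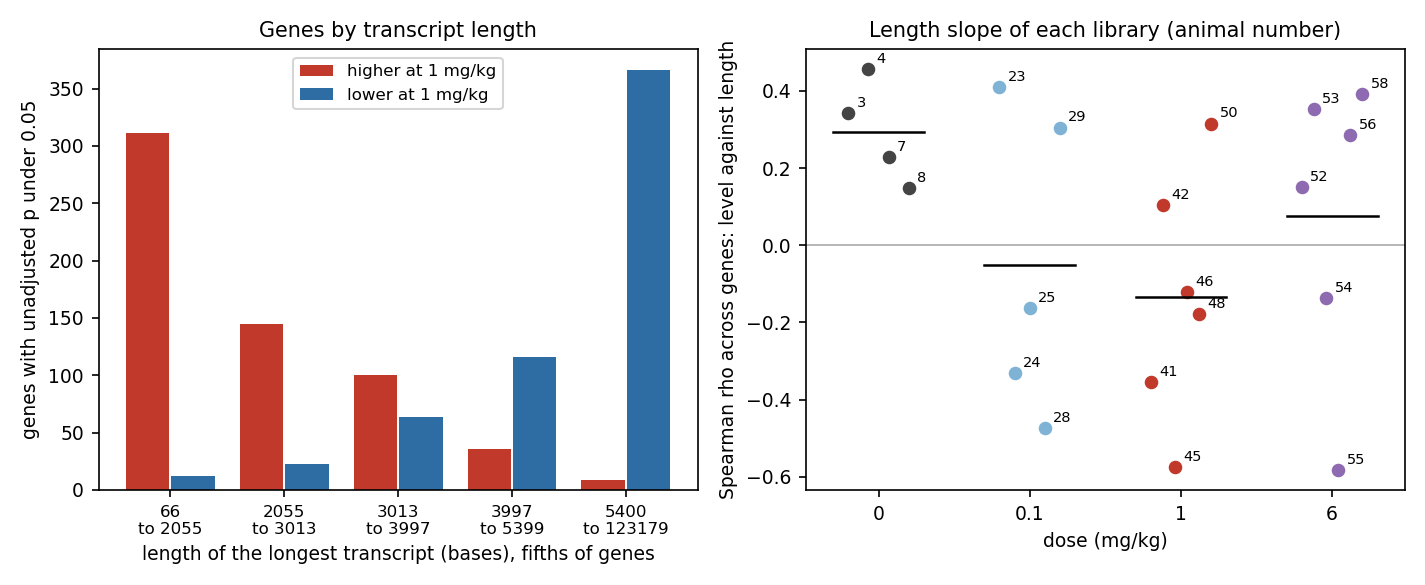
Left, number of genes with an unadjusted p under 0.05 that were higher (red) or lower (blue) at 1 mg/kg, in 5 bins of equal size by length of the longest transcript in bases; right, the length slope of each library (Spearman rho across genes), by dose in mg/kg, with animal numbers and group means as lines. Higher genes fall from 311 in the shortest bin to 9 in the longest while lower genes go from 12 to 366, and the slope is above 0 in each of the 4 vehicle libraries and in 2 of 6 at 1 mg/kg.

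Immediate early genes, which neurons switch on within minutes of activity, had the lowest median of the 22 functional lists. Their median transcript length was 3122 bases, against 3479 for all tested genes, so the fit with the length slope is no test of this median. Of 20 tested, 17 had a lower mean, 1 had an unadjusted p under 0.05 (a share near the 4.01% of all tested genes), and 0 passed. The median log2 fold change was -0.27 with all libraries, -0.35 without animal 45 and -0.35 with the length slope as a covariate. It was -0.18 without the vehicle library of animal 8, without animal 41 or without animal 50 of the 1 mg/kg group. No member had an unadjusted p under 0.05 without any 1 of vehicle animals 7 and 8 and animals 41, 42 and 48, in DESeq2, or with other size factors or filters. That number was 3 without animal 45 and 4 without animal 46.

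Arc, which regulates glutamate receptor endocytosis at synapses, read 294, 243, 353 and 305 CPM in vehicle. At 1 mg/kg it ranged from 34.7 to 387 CPM with a median of 179. Animals 45 and 46 were above every vehicle library and the other 4 dosed animals were below, so the groups overlapped (log2 fold change -0.55 ± 0.474, edgeR adjusted p = 0.67). Fos, a subunit of the AP-1 transcription factor, read 34.2, 34.4, 37.2 and 40.5 CPM in vehicle and 8.48, 24.6 and 46.1 CPM as the lowest, median and highest at 1 mg/kg (log2 fold change -0.50 ± 0.33, adjusted p = 0.604). Again animal 45 was above the vehicle range, and without it the log2 fold changes were -0.84 for Arc and -0.74 for Fos. Egr1, a zinc finger factor, averaged 444 ± 35.2 CPM with vehicle (SD, n = 4) against 374 ± 53.6 CPM (SD, n = 6) after 1 mg/kg, and Bdnf, the neurotrophin, 33.1 ± 2.54 and 33.6 ± 3.46 CPM. The member with the smallest p was Nr4a3, an orphan nuclear receptor, at 41.4 and 27.8 CPM (log2 fold change -0.57 ± 0.274, adjusted p = 0.588). In mean log2 CPM over the list, vehicle libraries spanned 5.81 to 6.15 and dosed libraries 5.19 to 6.12, with 4 of the 6 below every vehicle library.

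Genes of MAP kinase feedback lie downstream of the same kinase cascade. Of 18 tested, 14 had a lower mean, 3 had an unadjusted p under 0.05 and 0 passed, with a median log2 fold change of -0.08. Of all tested genes, 4.01% were lower at that level. The count of 3 was 1 with the length slope as a covariate, without any 1 of the 4 vehicle animals, and without animal 41 or animal 48. Next to Dusp4 these were Spred2 and Spry4, inhibitors of signalling from receptor tyrosine kinases to the MAP kinases. Spry4 read 18.6, 16.4, 17.3 and 18.03 CPM in vehicle and 10.8, 12.8 and 19.1 CPM as the lowest, median and highest at 1 mg/kg (log2 fold change -0.33 ± 0.159, edgeR adjusted p = 0.588). Animal 46 was above all vehicle libraries and 4 of the dosed animals were below them.

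Among platelet-derived growth factors (PDGF), which act from neurons and vessels on pericytes and glial progenitors, 5 of 6 genes had a lower mean. Pdgfb, the ligand that recruits pericytes, read 52.6, 48.1, 53.9 and 53.8 CPM in vehicle and 37.5, 42.5 and 48.2 CPM as the lowest, median and highest at 1 mg/kg. Only animal 50 reached the lowest vehicle library (log2 fold change -0.29 ± 0.102, edgeR adjusted p = 0.588). Its receptor Pdgfrb averaged 26.0 and 21.5 CPM (log2 fold change -0.27 ± 0.115), and the ligand Pdgfd 2.92 and 1.79 CPM (-0.70 ± 0.314). Those 3 had an unadjusted p under 0.05, where 4.01% of all tested genes were lower, and Pdgfa, Pdgfc and Pdgfra did not. The count was 1 without vehicle animal 4 or 7, without animal 45 or 46, and with the length slope as a covariate. Vessel markers, which bear on a ligand of endothelium, summed to 464 to 520.2 CPM in vehicle and 452 to 537 CPM at 1 mg/kg, so their ranges overlapped. Of 18 vessel markers 8 had a higher and 10 a lower mean (median log2 fold change -0.05), or 11 and 7 without vehicle animal 3 (median 0.07). Among them Vwf, an endothelial marker chosen after its values were seen, had groups without overlap (20.8 to 24.4 CPM in vehicle and 16.04 to 19.5 CPM at 1 mg/kg). Other endothelial markers went both ways, with lower means for Flt1 (66.8 and 53.6 CPM) and higher ones for Cldn5 (42.7 and 48.7 CPM) and Esam (14.9 and 16.55 CPM). So did mural cell markers, with Rgs5 at 61.7 and 64.8 CPM, Acta2 at 15.2 and 13.85 CPM and Myh11 at 10.1 and 8.76 CPM. Their part in the Pdgfb values was not tested.

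Delta protocadherins, adhesion molecules of developing and adult circuits, had lower means in 9 of 10 members (median log2 fold change -0.18, or -0.13 without animal 45), and 8 of 10 had higher means with the length slope as a covariate (median 0.09). Pcdh1 read 369, 396, 414 and 370.2 CPM in vehicle and 267, 297 and 373 CPM as the lowest, median and highest at 1 mg/kg (log2 fold change -0.31 ± 0.105, edgeR adjusted p = 0.588). Animal 50 alone of the dosed mice lay within the vehicle range.

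**Figure D4:**
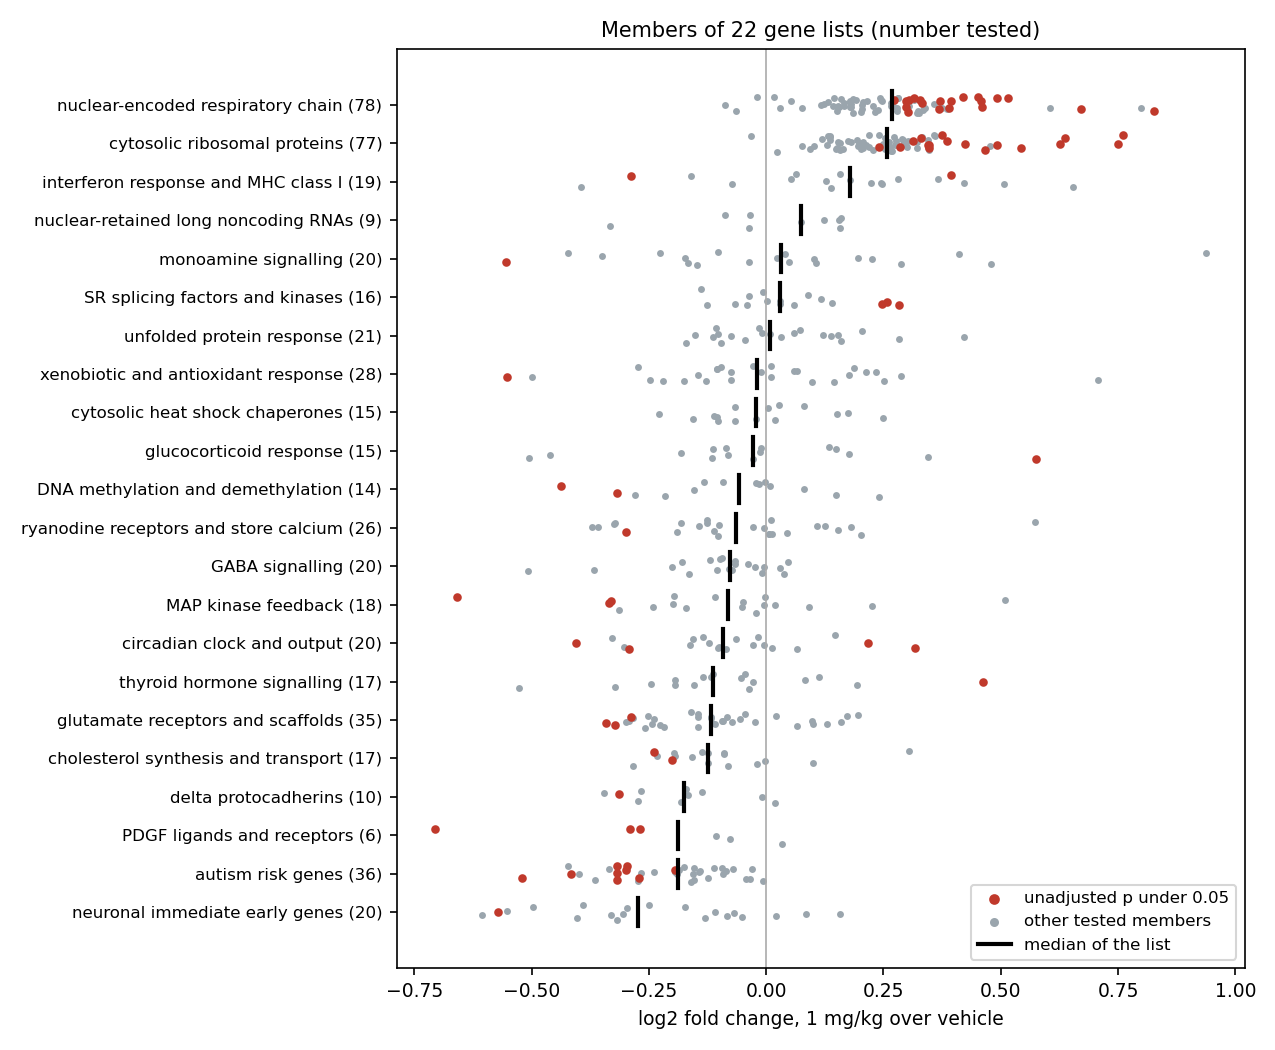
Log2 fold change of 1 mg/kg over vehicle for each tested member of 22 gene lists, with the number tested in brackets; red points have an unadjusted p under 0.05, grey points do not, and black bars are list medians. Medians run from -0.27 for immediate early genes to 0.27 for the respiratory chain, and no member passed an adjusted p of 0.05.

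Receptors of glutamate, the main excitatory transmitter, and their scaffolds had lower means in 27 of 35 members (median log2 fold change -0.12), with 3 at an unadjusted p under 0.05, against 4.01% of all genes, and 0 passing. Those were Grin2a and Grin3a, subunits of the NMDA receptor, and Grm3, a metabotropic receptor. Grin2a read 194, 178, 179 and 167 CPM in vehicle and 105, 149 and 172 CPM as the lowest, median and highest at 1 mg/kg (log2 fold change -0.34 ± 0.121, edgeR adjusted p = 0.588). Animal 42 alone of the dosed mice lay within the vehicle range. Without animal 45, 26 of 35 had a lower mean (median -0.09), and without animal 42 the count at an unadjusted p was 6. With the length slope as a covariate 12 of 35 had a lower mean (median 0.03). Genes of GABA signalling, the inhibitory counterpart, had lower means in 17 of 20 (median -0.08), none with an unadjusted p under 0.05, and in 3 of 20 with that covariate (median 0.05).

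Of the genes of PCB toxicology, those of xenobiotic and antioxidant response were divided, 13 higher and 15 lower among 28 tested (median log2 fold change -0.02). Slc7a11, the cystine importer that feeds glutathione synthesis, was the member with an unadjusted p under 0.05. It read 50.2, 49.7, 46.3 and 40.2 CPM in vehicle and 24.8, 30.1 and 40.9 CPM at 1 mg/kg, so that animal 41 alone reached the lowest vehicle library (log2 fold change -0.55 ± 0.169, edgeR adjusted p = 0.588). With the length slope as a covariate its log2 fold change was -0.38, and no lower member of the list had an unadjusted p under 0.05. The aryl hydrocarbon receptor gene Ahr averaged 13.4 ± 1.44 CPM with vehicle (SD, n = 4) against 11.1 ± 2.13 CPM (SD, n = 6) after 1 mg/kg, and its target Cyp1b1 3.84 ± 0.799 and 2.71 ± 0.509 CPM. Cyp1a1, the best known target of that receptor, was too low to test. Aldh1a1, a retinaldehyde dehydrogenase, averaged 35.5 ± 4.97 and 40.4 ± 4.13 CPM (adjusted p = 0.593).

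Ryanodine receptors did not pass either. Ryr2, the main form in cortical neurons, read 216, 231, 211 and 171 CPM in vehicle and 113, 164 and 202 CPM as the lowest, median and highest at 1 mg/kg, with overlapping groups (log2 fold change -0.37 ± 0.195, edgeR adjusted p = 0.588). Ryr3 averaged 50.1 ± 12.2 and 39.1 ± 17.4 CPM, and Ryr1 26.7 ± 7.96 and 24.8 ± 8.08 CPM. Over the list with store calcium channels and pumps, 11 of 26 had a higher mean, and Itpr1, the inositol trisphosphate receptor, had an unadjusted p under 0.05 (log2 fold change -0.30 ± 0.142, or -0.02 with the length slope as a covariate). The list had no lower member at that level in DESeq2, with other size factors or filters, or without any 1 of vehicle animals 3, 4 and 7 and animals 41, 45, 46 and 48, and 3 without animal 50. These receptors have long transcripts, and with the length slope as a covariate the log2 fold changes of Ryr1, Ryr2 and Ryr3 were 0.16, 0.03 and 0.03.

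Thyroid hormone genes showed 4 of 17 with a higher mean (median log2 fold change -0.11, or 0.008 with the length slope). Nrgn, a calmodulin-binding protein of dendrites whose gene responds to thyroid hormone, had groups without overlap. It read 1657, 1411, 1656 and 1336 CPM in vehicle and 1688, 1919 and 2945 CPM as the lowest, median and highest at 1 mg/kg (log2 fold change 0.46 ± 0.165, edgeR adjusted p = 0.588, and 0.34 without animal 45). The list had 1 higher member at an unadjusted p under 0.05, but 0 with the length slope as a covariate and 0 with 1 surrogate variable. The receptors Thra and Thrb had log2 fold changes of 0.08 ± 0.0982 and -0.19 ± 0.139, the activating deiodinase Dio2 -0.19 ± 0.165, and the responsive genes Hr and Klf9 0.19 ± 0.161 and -0.12 ± 0.13. None of these had an unadjusted p under 0.05.

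Monoamine genes were divided, 11 higher and 9 lower of 20 tested, or 15 and 5 without vehicle animal 8 (median log2 fold change 0.11 in place of 0.03). Adra1a, an adrenergic receptor, was the member with an unadjusted p under 0.05 and had groups without overlap, at 10.6 ± 0.939 CPM with vehicle (SD, n = 4) against 7.16 ± 2.08 CPM (SD, n = 6) after 1 mg/kg. With the length slope as a covariate its log2 fold change was -0.04 in place of -0.55, and no lower member had an unadjusted p under 0.05 in that fit or without any 1 of vehicle animals 4, 7 and 8 and animals 45 and 48. The dopamine receptor genes Drd1 and Drd2 averaged 81.9 and 72.5 CPM and 81.9 and 72.9 CPM. Both also mark striatal projection neurons, and animal 42, lowest of the 10 libraries in those markers, was lowest in both (33.3 and 27.9 CPM). Vehicle animal 8 was the highest in those markers (5164 CPM). The Drd2 log2 fold change was 0.002 without animal 42 and 0.09 without vehicle animal 8, in place of -0.17.

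Stress and hormone response genes gave small medians. Cytosolic heat shock chaperones had 7 higher and 8 lower of 15 (median log2 fold change -0.02), and the unfolded protein response 11 higher and 10 lower of 21 (0.008), with no member at an unadjusted p under 0.05 in either. The heat shock median was -0.07 without vehicle animal 3 or 4 and 0.02 without vehicle animal 8. Without vehicle animal 8 the unfolded protein response had 16 higher and 5 lower (median 0.05). In the glucocorticoid list, Hsd11b1, which regenerates active glucocorticoid within cells, had the smallest p. It read 9.77, 6.31, 6.91 and 5.48 CPM in vehicle and 9.66, 10.7 and 11.8 CPM as the lowest, median and highest at 1 mg/kg. Animals 46 and 50 lay just below the vehicle library of animal 3, and the other 4 above all (log2 fold change 0.57 ± 0.172, edgeR adjusted p = 0.588). The receptor gene Nr3c1 had a log2 fold change of -0.18 ± 0.126. Cholesterol synthesis genes had lower means in 15 of 17 (median -0.12, or -0.06 with the length slope), of which Dhcr7 and Sqle had an unadjusted p under 0.05, where 4.01% of all tested genes were lower. That count was 0 without vehicle animal 7 and without animal 45 or 48, 3 without vehicle animal 4 or animal 42, and 7 without animal 50.

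SR proteins guide the choice of splice sites. Of 16 tested with their kinases, 10 had a higher mean and 3 of these an unadjusted p under 0.05, namely Srsf6, Srsf5 and Srsf9 (4.28% of all tested genes were higher at that level, and 1.06% did not overlap). Srsf6 read 80.6, 73.4, 73.1 and 76.9 CPM in vehicle and 82.2, 89.1 and 99.3 CPM as the lowest, median and highest at 1 mg/kg, without overlap (log2 fold change 0.25 ± 0.0765, edgeR adjusted p = 0.588). Core clock and clock output genes had 5 higher and 15 lower of 20. The output genes Dbp and Usp2 had higher means and Clock and Bhlhe40 lower ones at an unadjusted p under 0.05, beside 4.28% higher and 4.01% lower of all genes. No clock gene was at that level without vehicle animal 3, without vehicle animal 4, or with the length slope as a covariate, and 1 lower gene was without animal 45. Exons of Dbp and Bhlhe40 overlap other genes on the opposite strand. Time of tissue collection is not given in the sources used here, and its part was not tested.

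Interferon response and MHC class I genes had higher means in 15 of 19 (median log2 fold change 0.18, or 0.05 with the length slope). Ifi27 had an unadjusted p under 0.05 in the higher direction (0.39 ± 0.171) and Stat2, a transcription factor of that response, in the lower (-0.29 ± 0.107). No higher member was at that level without vehicle animal 4 or animal 45, and 3 were without vehicle animal 8 or without animal 48 or 50. No lower member was without vehicle animal 7. Among enzymes that write or erase DNA methylation, Tet3, which oxidises methylcytosine, averaged 75.2 ± 3.16 CPM with vehicle (SD, n = 4) against 55.5 ± 12.8 CPM (SD, n = 6) after 1 mg/kg, with an edgeR adjusted p of 0.588. Nuclear-retained long noncoding RNAs had 5 higher and 4 lower of 9, none with an unadjusted p under 0.05.

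**Figure D5:**
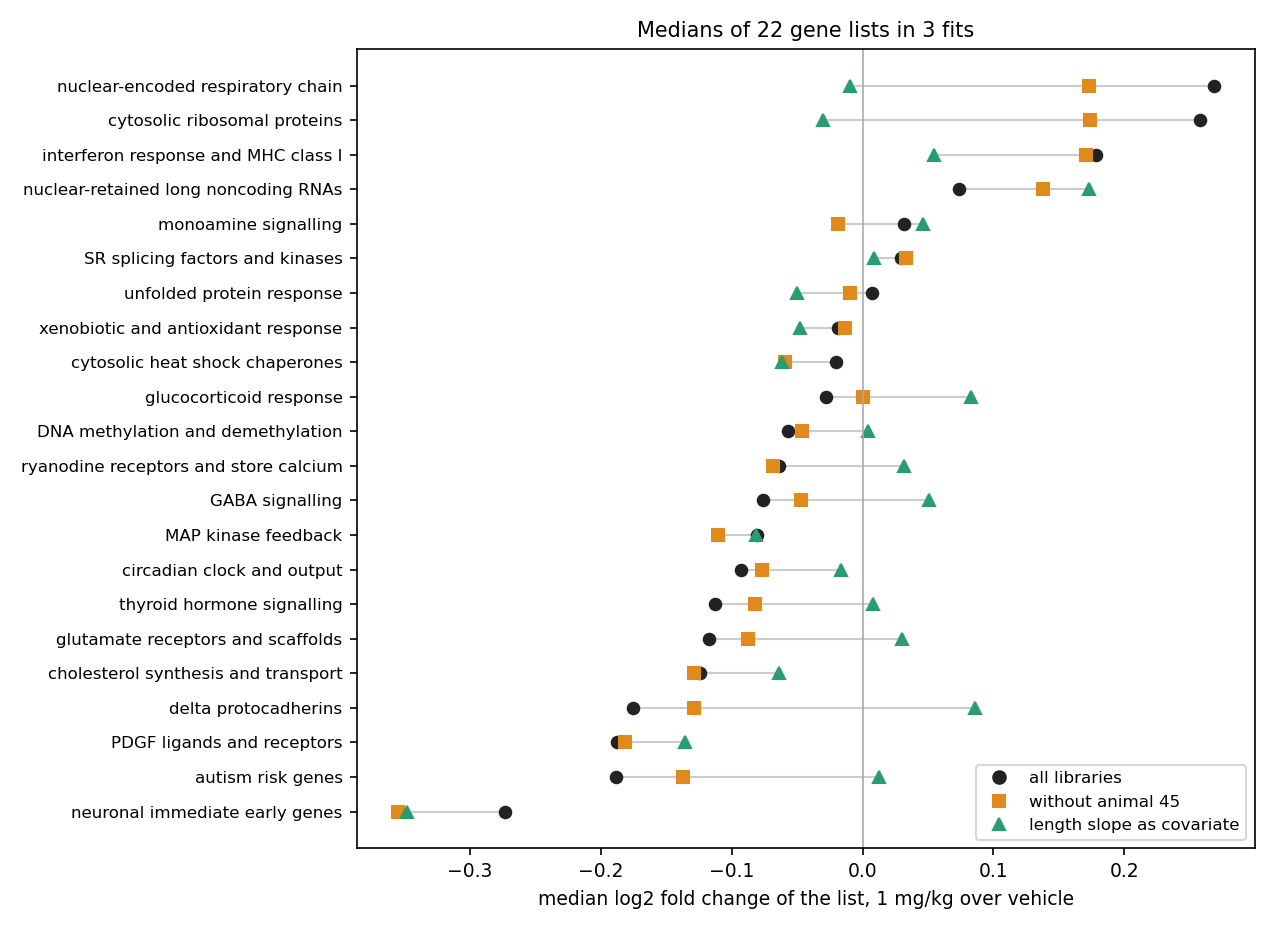
Median log2 fold change of 1 mg/kg over vehicle for the same 22 gene lists in 3 fits, with all libraries (black circles), without animal 45 (orange squares) and with the length slope of each library as a covariate (green triangles). The respiratory chain median goes from 0.27 to 0.17 and -0.009 and that of autism risk genes from -0.19 to -0.14 and 0.01. That of immediate early genes, whose median transcript length (3122 bases) is near that of all tested genes (3479), is -0.27, -0.35 and -0.35.

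Cell type markers were read as summed levels, and in a bulk punch fewer cells of a type and less RNA per cell cannot be told apart. Astrocyte markers summed to 6152 to 6708 CPM in vehicle and 5815 to 6433 CPM at 1 mg/kg, microglia markers to 543 to 561 and 527 to 663 CPM, and oligodendrocyte markers to 2797 to 4178 and 3030 to 4216 CPM. Ranges overlapped in each. Of 19 oligodendrocyte markers, 14 had a higher mean and 0 an unadjusted p under 0.05 (median log2 fold change 0.13), while without vehicle animal 8 these numbers were 16 and 10 (median 0.26). In that fit 743 of all 14991 tested genes were higher at that level. Among microglia markers, 15 of 18 had a higher mean, and Trem2, a lipid receptor of microglia, had groups without overlap (vehicle 10.8 ± 0.883 CPM, SD, n = 4, against 14.7 ± 2.11 CPM, SD, n = 6). With the length slope as a covariate, 7 of 18 had a higher mean and the median log2 fold change was -0.04 in place of 0.14. Without animal 45 the list median was 0.07, and the Trem2 log2 fold change was 0.37 in place of 0.45. Interneuron markers summed to 1102 to 1216 CPM in vehicle and 1150 to 1538 CPM at 1 mg/kg, the highest being animal 45 and the next animal 48 (1331 CPM).

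Ttr, the thyroxine carrier made by the choroid plexus, read 2.25, 5.26, 4.00 and 1.60 CPM in vehicle and 4.96, 12.9 and 34.2 CPM as the lowest, median and highest at 1 mg/kg. Animals 42 and 45 were the highest and animal 41 lay within the vehicle range (log2 fold change 2.34 ± 0.756, edgeR adjusted p = 0.588). It was 2.11 without animal 45 and 1.99 without animal 42. Of the other choroid plexus markers Folr1, Aqp1, Otx2 and Prlr were too low to test, Kcnj13 averaged 1.03 and 0.774 CPM, and Enpp2, also made by oligodendrocytes, 167 and 178 CPM. The part of choroid plexus RNA in the Ttr values was not tested beyond this.

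The 1 mg/kg group was also set against the other doses of the same tissue. Against 0.1 mg/kg, 0 of 14838 genes passed, with 337 higher (2.27%) and 445 lower (3%) at an unadjusted p under 0.05 and a smallest adjusted p of 0.15. DESeq2 called 13 in that comparison. Hspa5, the main chaperone of the endoplasmic reticulum, had the smallest p, with 254 ± 33.4 CPM (SD, n = 6) after the middle dose, 383 ± 60 CPM (SD, n = 5) after the low dose and 263 ± 46.5 CPM (SD, n = 4) without PCBs (log2 fold change of 1 over 0.1 mg/kg -0.59, edgeR adjusted p = 0.15). The unfolded protein response list had 12 of 21 members lower than at 0.1 mg/kg at an unadjusted p under 0.05, heat shock chaperones 10 of 15, and immediate early genes 11 of 20, with median log2 fold changes of -0.25, -0.23 and -0.47. These counts stand beside 3% of all genes in that direction, and no member passed in edgeR.

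Against 6 mg/kg, 0 genes passed, 710 were higher (4.79%) and 560 lower (3.77%) at an unadjusted p under 0.05, and the smallest adjusted p was 0.378, while DESeq2 called 4. Ribosomal protein genes had 9 of 77 and respiratory chain genes 15 of 78 members above 6 mg/kg at that level, with median log2 fold changes of 0.15 and 0.13. In order of dose from 0.1 to 6 mg/kg, the median against vehicle was 0.21, 0.26 and 0.12 for ribosomal protein genes and 0.21, 0.27 and 0.09 for the respiratory chain. For immediate early genes it was 0.36, -0.27 and -0.36. The 3 doses share the same 4 vehicle libraries, so these medians are not independent of each other. The correlation of the log2 fold change with transcript length was -0.467 for the low dose and -0.306 for the high dose. With GC content it was 0.252 for 1 mg/kg, 0.235 for 0.1 mg/kg and -0.178 for 6 mg/kg against vehicle. For 1 against 6 mg/kg the correlation was 0.502 with GC content and -0.316 with length, and the part of either in that comparison was not tested.

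In the striatum, with 4 vehicle and 6 libraries at 1 mg/kg under the same animal numbers, the effect of the dose was compared with that in the cortex by an interaction term. The cortex punches held markers of striatal projection neurons, as given above, so the tissues were not shown to be fully separate. Of 15114 genes, 0 passed, with 525 above (3.47%) and 548 below (3.63%) in striatum at an unadjusted p under 0.05 and a smallest adjusted p of 0.489, and DESeq2 called 0 as well. Arhgap9 had the smallest p, with a log2 fold change of -0.78 in striatum and 1.89 in cortex (interaction -2.67 ± 0.522, edgeR adjusted p = 0.489). Casp6 followed among the leading genes, with 2.13 ± 0.3 CPM in vehicle striatum (SD, n = 4) against 2.33 ± 0.357 CPM (SD, n = 6) in dosed striatum, with an interaction of -1.35 ± 0.337 (adjusted p = 0.673). Ribosomal protein and respiratory chain genes had median log2 fold changes of 0.01 and 0.03 in striatum, against 0.26 and 0.27 in cortex in that fit, and 14 and 10 members were below at an unadjusted p under 0.05. Immediate early genes had medians of -0.44 in striatum and -0.27 in cortex.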

How the data were processed

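Poly(A)-captured or rRNA-depleted RNA (which of the 2 was used is not stated) from tissue punches was sequenced, per the labels' protocols. The submitters' processing notes name FastQC, HISAT2 and the mm10 build. The counting program, its use of strand and versions are not given in the sources used here. The authors deposited raw read counts for 17653 Entrez gene IDs, each with a total of at least 10 counts, and symbols for 99.97% of them came from RefSeq GRCm38.p6. Totals were 8722232 to 12135200 counts per library. Between libraries of the vehicle group or of the 1 mg/kg group, chi-square over its degrees of freedom was at least 6.09, so none of these 10 was taken for a repeat of another.

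All 21 prefrontal cortex libraries were fitted together by dose with edgeR 4.0.16 in R 4.3.3 (filterByExpr, TMM scaling, robust quasi-likelihood test, Benjamini-Hochberg adjustment, threshold 0.05). The interaction was fitted over the vehicle and 1 mg/kg libraries of striatum and cortex. CPM are after TMM scaling, with a prior count of 2 for log2 CPM. A standard error is the log2 fold change over the square root of F. Alternatives were DESeq2 1.42.0, median-ratio size factors, other filters, only the 2 groups, 1 surrogate variable (sva 3.50.0), a GC slope, and leaving out each library. The length slope and the removal of 3 libraries were added after the data were seen. Transcript length and GC came from the longest GENCODE vM21 transcript.

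The genes named are, in each direction, the 12 with the smallest p among those whose libraries do not overlap, since none passed, the 3 with the smallest p in each list and other contrast, and 20 genes taken whatever their values, among them Dusp4, Pdgfb, Pcdh1, Ahr, Cyp1b1, the ryanodine receptors, Fos and Arc. Other list members are named to complete a count or were chosen after their values were seen. The members and lists were chosen with earlier results of these data known. The NRF1 motif was shortened to 9 letters after a longer form had been counted. The scripts were tested on simulated data. Liver was not used here, and some genes named by the rule are not reported here, though list counts include them.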

Additional observations from a re-analysis of the deposited data

Results flagged for a closer look

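Of 318 sets of 4 or 6 libraries examined, 25 held 1 library far from the rest of its group, and chance alone gives about 15.9. The vehicle library of animal 8 and the 1 mg/kg library of animal 42 accounted for 6 each and animal 45 for 4.

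The vehicle library of animal 8 stood apart in red cell transcripts, with a marker sum of 583 CPM, Hba-a1 at 471 CPM and Hbb-bt at 109 CPM. It was also apart in Egr1 (497 CPM), Hscb (3.42 CPM) and Sqle (71.6 CPM, low). Animal 42 of the 1 mg/kg group was low in markers of striatal projection neurons, with a sum of 1707 CPM, Rasd2 at 161 CPM, Adcy5 at 364 CPM and Drd2 at 27.9 CPM. It was high in Sec24d (15.1 CPM) and Ptgs2 (13.8 CPM). Animal 45 was high in the neuropeptide genes Cck (541 CPM) and Npy (114 CPM) and in Aldh1a1 (48.2 CPM), and low in Clock (48.3 CPM).

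Other libraries at 1 mg/kg were high in Pdgfd (animal 41, 3.52 CPM), A830052D11Rik (animal 48, 40.0 CPM), Arrdc2 (animal 50, 16.0 CPM) and Pcdh11x (animal 50, 17.4 CPM). In vehicle, animal 7 was high in 2810001G20Rik (6.59 CPM) and low in Atp5mpl (39.5 CPM). Animal 4 was high in Shisal1 (91.8 CPM), and animal 3 was low in Tet3 (70.6 CPM) and high in Hkdc1 (15.1 CPM).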

How the results depend on the processing

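No gene passed between 1 mg/kg and vehicle in any of the alternatives run, with 512 to 1813 genes at an unadjusted p under 0.05. Of 2559 gene and setting combinations over 135 named genes, 42 changed sign and 0 passed. The 24 leading genes were chosen for groups that do not overlap, so their direction without 1 library was fixed by that choice.

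Against 0.1 mg/kg, where 0 genes were called, DESeq2 called 13, the fit with 1 surrogate variable 28, and leaving out 1 library gave 0 to 1 (1 without animal 23 or animal 24). Against 6 mg/kg DESeq2 called 4, the surrogate variable 1, and leaving out 1 library gave 0 to 1 (1 without animal 55, with 2610 genes at an unadjusted p under 0.05 in place of 1270, and 668 without animal 56). The cause was not tested.

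With the length slope as a covariate, log2 fold changes that turned sign were Npy -0.018, Ryr2 0.032, Cryab -0.019, Ncor1 0.040, Gabrb1 0.052, Hspa4l 0.039, Snhg14 0.081, Pcdh11x 0.073, Dnmt3a 0.0017, Nr3c1 0.055, Thrb 0.052, C1qb -0.042, Ryr3 0.034, Pde10a 0.055, Klf9 0.11, Thra -0.10, Drd1 0.018 and Ryr1 0.16. With 1 surrogate variable they were Snhg14 0.014, Pcdh11x 0.0011, Nr3c1 0.0054, Ryr3 0.017, Pde10a 0.027, Klf9 0.061, Thra -0.072, Drd1 0.031 and Ryr1 0.15. Leaving out 1 library gave Hba-a1 -1.30 to 0.57, Hbb-bt -1.07 to 0.72, Alas2 -0.92 to 0.11, Rasd2 -0.32 to 0.039, Adcy5 -0.34 to 0.067, Drd1 -0.33 to 0.023, Pdia4 -0.20 to 0.0094, Drd2 -0.37 to 0.087, Hspa5 -0.12 to 0.091, Ryr1 -0.26 to 0.099 and Bdnf -0.014 to 0.072. For the first 10 of these the sign turned without vehicle animal 8. None of these genes passed in any fit.

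With the animal number as a block in the striatum interaction, 0 genes were called and 1316 had an unadjusted p under 0.05, against 1073 without it. Deviations of the 10 same-numbered pairs correlated at a mean of 0.0745 (-0.0851 to 0.176, 5 over 0.1), against -0.0173 for 42 pairs of different numbers (6 over 0.1). The labels do not state that a number is 1 mouse in both tissues. The block changed no call. Leaving out 1 animal number gave 0 called and 548 to 2157 at that unadjusted level. Casp6, Arhgap9 and Sgcd rest on at most 33 counts per library, which limits their precision.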
